A study of Saccharomyces cerevisiae with 6 samples.

Results

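Cryptic unstable transcripts (CUTs) were followed from growth into quiescence in budding yeast, Saccharomyces cerevisiae. The rows were chosen by name alone, as those called CUT followed by digits in the deposited table of read counts. They were 925 of its 9891 rows. All 925 had at least 1 read in some library. The same table held 847 stable unannotated transcripts (SUTs), the class most like CUTs, and 6082 rows counted here as protein-coding genes.

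CUTs are capped, non-coding transcripts of RNA polymerase II. Many start in the nucleosome-free regions at the ends of genes, often from a promoter that fires in both directions. The Nrd1-Nab3-Sen1 complex ends them early, the TRAMP complex adds a short poly(A) tail, and the nuclear exosome with its exonuclease Rrp6 degrades them, so they are best seen in cells that lack Rrp6. SUTs share these origins but last long enough to be seen in wild-type cells. The level of a CUT in a strain that has its exosome is what remains after synthesis and decay.

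There were 3 libraries from log-phase cells and 3 from quiescent cells, and the labels' protocols call the replicates biological. Both groups were strain YCH406, a MATa strain in which (hta1-htb1)∆::LEU2 and (hta2-htb2)∆::TRP1 remove the chromosomal genes of histones H2A and H2B. The histones came from the plasmids pSAB6 (HTA1-HTB1-URA3) and pZS145 (HTA1-Flag-HTB1::HIS3), and the strain also carries RPB3-9Myc::hphNT1, his3∆200, leu2∆1, ura3-52 and trp1∆. Cultures grew at 30 C in YPD with added adenine and ampicillin. Log cells were collected at an OD600 of 0.8 to 1.0. Quiescent cells were the dense fraction of a stationary culture at day 7, purified on Percoll gradients. The labels name no deletion of a decay factor.

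Log replicates 1 to 3 had totals of 12395743, 10476761 and 14213993 counts, and quiescent replicates 1 to 3 had 8894585, 12696572 and 12245637. Rows of the ribosomal DNA unit took 4.68%, 14.0% and 19.3% of these counts in log libraries and 16.2%, 35.0% and 38.5% in the quiescent ones. Values per library follow the order of replicates 1 to 3. The growth genes ENO2, PMA1 and RPP0 fell in quiescent cells, and the stationary-phase genes HSP12, HSP26, SPG1, SPG4 and ADY2 rose. The a mating type genes MFA1, MFA2 and STE2 had reads in every library. HTA2 and HTB2, which the labels give as deleted, had 77 to 161 reads in each library. No value here separates fewer cells with a transcript from less of it per cell, since the RNA was taken from bulk cultures, and the 2 cannot be told apart.

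CUT reads were few. CUTs took 74671, 80642 and 81689 reads in the log libraries, and 75418, 121535 and 68000 in the quiescent ones. The median CUT had 9, 10 and 9 reads in the log libraries and 8, 10 and 9 in the quiescent ones. Of the 925 CUTs, 171 had at least 10 reads in every library, 14 had at least 100 in every library, and 180 stayed under 10 in every library.

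Per length, the median CUT lay below the median gene in every library. In TPM, a length-scaled share of the library computed here, the median CUT was at 0.606, 0.868 and 0.716 in log libraries and at 0.529, 0.540 and 0.397 in the quiescent ones. The median gene was at 6.55, 6.88 and 6.86 TPM and at 4.05, 3.37 and 2.37 TPM. In the log mean 356 CUTs reached 1 TPM, 48 reached 10 TPM and 11 reached 100 TPM. In the quiescent mean these numbers were 266, 30 and 7.

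STE3, the a-factor receptor gene, is repressed in MATa cells and gives a low level to set beside CUTs. It had 10.6 to 23.4 reads per kilobase in log libraries and 52.4 to 67.3 in quiescent libraries, against a median of 18.8 to 25.7 for CUTs over all 6 libraries. The other alpha-specific gene checked, MF(ALPHA)1, a gene of the alpha-factor pheromone, had 8.05 to 16.1 and 0 to 36.2 reads per kilobase. The share of CUTs above the density of STE3 was 42.8%, 60.4% and 71.4% in log libraries and 18.6%, 28.8% and 19.6% in the quiescent ones. The density of STE3 was itself higher in quiescent libraries, so these shares give no direction for CUTs. Above the density of MF(ALPHA)1 the share was 84.2%, 62.2% and 79.6% and then 36.3%, 93.6% and 31.7%, and those groups overlapped. What part of the reads on a weak CUT comes from transcripts of the CUT itself was not tested.

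**Figure D1:**
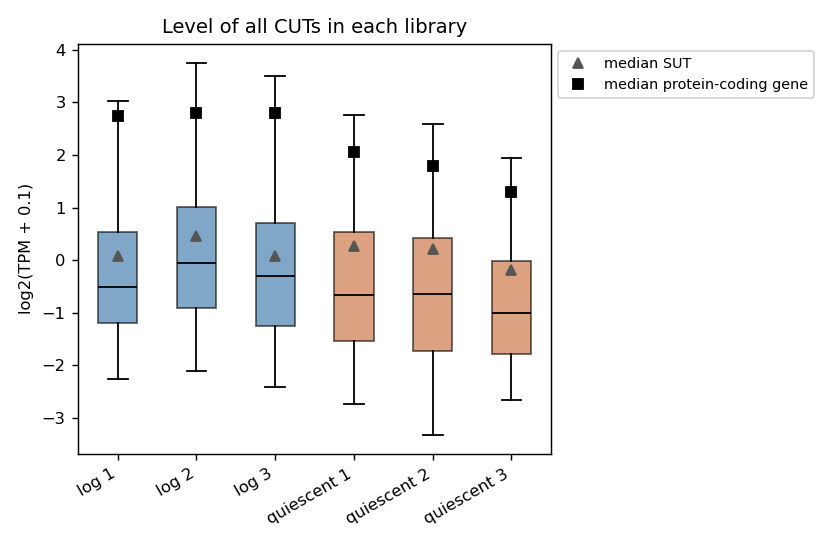
Level of all 925 CUTs in each library, as log2(TPM + 0.1), where triangles and squares mark the median SUT and the median gene. Boxes span the quartiles with the median as a line and whiskers run from the 5th to the 95th percentile; the median CUT lies below the median SUT and the median gene in all 6 libraries.

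A few CUTs held most of the class's reads. CUT567, of 144 bases, had 32926, 22244 and 28541 reads in log libraries and 28121, 54090 and 21490 in the quiescent ones. CUT677, of 168 bases, had 14820, 9356 and 16797 reads and then 14607, 29793 and 14333. The strand setting of the counts is not known, and no positions were at hand, so whether reads of an overlapping gene or small RNA enter these counts was not tested. Together CUT567 and CUT677 took 39.2% to 69.0% of the CUT reads of a library. The 10 most abundant CUTs took 74.5% ± 1.65 of CUT reads in log libraries and 77.0% ± 5.67 in quiescent libraries (SD, n = 3 each; exact two-sided permutation p = 0.7).

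In the edgeR fit both were higher in quiescent libraries, and in TPM both were lower on average. In normalized CPM, counts scaled to library size, CUT567 was at 2079 ± 226 in log and 3279 ± 1276 in quiescent libraries (SD, n = 3 each). The groups did not overlap, but its log2 fold change of 0.66 (SE 0.31) did not pass the edgeR test (adjusted p = 0.0878). CUT567 passed without quiescent replicate 3 (0.91; edgeR, adjusted p = 0.0406), with TMM scaling on genes alone (0.86; adjusted p = 0.0319), in DESeq2 (0.72; adjusted p = 0.0263) and at a minimum of 10 TPM (1.14; adjusted p = 0.00849). In TPM its mean was 6657 in log and 5399 in quiescent libraries, and limma on log2(TPM + 1) gave -0.42 (adjusted p = 0.421). CUT677 was at 1013 ± 223 and 1866 ± 639 CPM, and its rise of 0.88 (SE 0.30) passed at an adjusted p of 0.0247. The call was lost without log replicate 1 (0.89), log replicate 2 (0.72) or quiescent replicate 2 (0.58), with no minimum level (0.73) and under total-count scaling (0.66). At a minimum of 10 TPM the rise was 1.37. In TPM the mean of CUT677 was 2788 in log and 2592 in quiescent libraries, and limma on log2(TPM + 1) gave -0.16, so the direction of both CUTs depends on the scaling.

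Most other CUTs of highest level were short as well. CUT628, of 144 bases, averaged 1690 TPM in log libraries and 28.3 in quiescent ones. CUT544, of 136 bases, averaged 826 and 488 TPM. Its CPM of 148, 273 and 305 in log libraries and 234, 418 and 184 in quiescent ones overlapped (log2 fold change 0.20, SE 0.35, adjusted p = 0.619), and its change was -0.06 without log replicate 1, -0.19 without quiescent replicate 2 and -0.83 in limma on TPM. CUT484, of 192 bases, averaged 221 TPM in log and 10.3 TPM in quiescent libraries.

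CUT226, of 160 bases, averaged 173 and 156 TPM. It had the widest spread among quiescent libraries of the CUTs with at least 10 TPM in each, at 66.4, 182 and 69.1 CPM. The log libraries had 27.2, 39.7 and 111 CPM, so the groups overlapped. Its log2 fold change of 0.83 (SE 0.53) did not pass (adjusted p = 0.185), but without log replicate 3 it was 1.72 (edgeR, adjusted p = 0.00864), without quiescent replicate 2 it was 0.21, and limma on TPM gave -0.08.

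CUTs moved in both directions, some to or from near silence. The edgeR quasi-likelihood test was run on the 7305 rows with a mean of at least 1 TPM, among them 314 CUTs, with p-values adjusted over all 7305. CUTs that rose in quiescent cells numbered 90, or 28.7% of the 314, where 32.8% of all tested rows rose. CUTs that fell numbered 60, or 19.1%, where 35.2% of all tested rows fell. The remaining 164 did not pass.

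The minimum of 1 TPM left out 611 CUTs, and it let in some through 1 group alone. At its edge, CUT324 entered at a mean of 1.00 TPM and CUT855 stayed out at 0.997. Of the tested CUTs, 182 reached 1 TPM in both group means, and of these 54 rose, 24 fell and 104 did not pass. A further 87 reached it only in the log mean, with 36 fallen and 51 not passed, and 45 only in the quiescent mean, with 36 risen and 9 not passed. For the 87 and the 45 the direction was bound up with entry to the test.

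With no minimum, all 925 CUTs were tested. In that fit 144 CUTs rose, 15.6% of the 925, where 25.9% of the 9371 rows with a read rose, and 87 fell, or 9.41%, where 29.9% of these rows fell. Counted without any test, 216 CUTs (23.4%) had every quiescent library above every log library in normalized CPM, against 32.3% of the rows with a read. Another 111 (12.0%) had every quiescent library below every log library, against 30.8%.

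The direction of the class was relative to the scaling. The median log2 fold change of the tested CUTs was 0.43 and that of the genes -0.21. The median CUT thus lay 0.64 above the median gene, and 0.44 to 0.87 above it over the alternative settings. When TPM values were tested with limma on log2(TPM + 1), 38 CUTs rose (12.1%) and 118 fell (37.6%). Of all tested rows 14.5% rose and 53.9% fell there. Upward calls were thus 24.4% of the CUT calls, where they were 60.0% in the edgeR test. On that scale the median change was -0.79 for all tested rows and -0.31 for CUTs, where it was -0.02 and 0.43 in the edgeR test. Of the 150 CUT calls, limma on TPM kept 98 in the same direction, and 4 had the opposite sign without passing.

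Of the 90 called CUTs that rose, 44 had a log2 fold change of at least 2. Of the 60 that fell, 47 had one of -2 or lower. A call favours large changes, and 36 of the 90 and 36 of the 60 reached 1 TPM in 1 group mean alone. The counts of large folds therefore give no measure of the size of change in CUTs at large. The groups did not overlap in 83 of the risen and 57 of the fallen CUTs. That adds no support, since the calls came from the same counts. Over all rows with a read, called or not, 32.3% had all quiescent libraries higher and 30.8% had all lower. CUTs were also noisier than genes, with a median biological coefficient of variation of 0.404 for tested CUTs and 0.217 for tested genes. The 2 classes were not matched for level. Medians per library were 18.8 to 25.7 reads per kilobase for all CUTs and 127 to 208 for all genes. What part of the difference in noise goes with level was not tested.

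**Figure D2:**
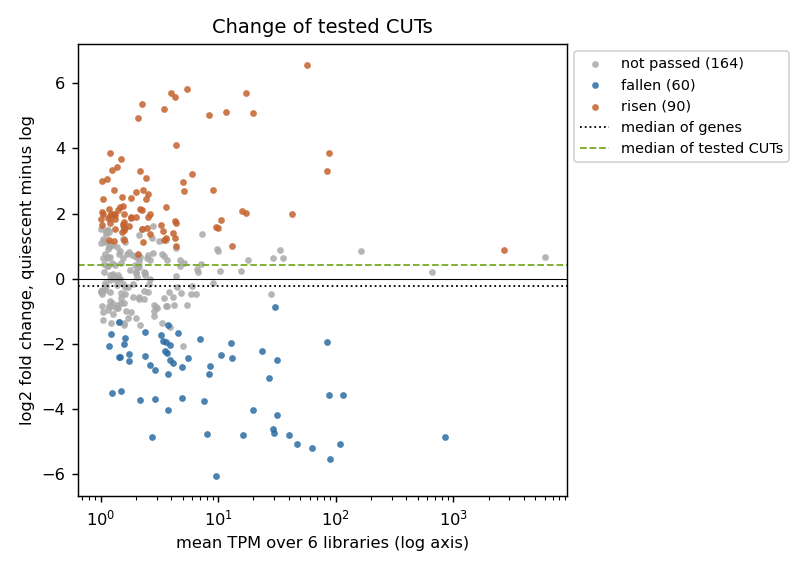
Log2 fold change of each tested CUT, quiescent minus log, against its mean TPM over 6 libraries on a log axis, from the edgeR fit over 7305 rows. Each point is 1 of 314 CUTs, coloured by the test; the 90 risen and 60 fallen CUTs are found at low and high levels, and CUT567 and CUT677 lie at the far right at 0.66 and 0.88. Lines mark 0, the median of genes (-0.21) and the median of tested CUTs (0.43).

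The CUTs that rose most were nearly silent in log cells. CUT791, of 160 bases, had 15, 4 and 12 reads in log libraries and 1008, 602 and 651 in the quiescent ones. It went from 0.752 ± 0.374 to 74.3 ± 24.3 CPM (SD, n = 3 each), a log2 fold change of 6.58 (SE 0.40; edgeR, adjusted p = 3.38e-07). All 3 quiescent libraries were far above all 3 log libraries.

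CUT757, of 536 bases, had 2, 8 and 6 reads in log and 312, 205 and 199 in quiescent libraries (log2 fold change 5.82, SE 0.45). CUT553, of 144 bases, had 2, 7 and 6 and then 229, 214 and 178 reads (5.70, SE 0.40). CUT122, of 288 bases, had 11, 14 and 6 and then 305, 247 and 277 reads (5.11, SE 0.35). The quiescent libraries of CUT553 and CUT122 lay close together in CPM, and those of CUT757 were more spread, at 31.1, 17.9 and 21.4 CPM. In all 3 CUTs the few reads in log cells make the folds imprecise.

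CUT602 and CUT904 rose by a like amount with a wider spread of CPM in quiescent libraries. CUT602, of 616 bases, had 1.40, 5.41 and 2.11 CPM in log and 121, 52.3 and 125 CPM in quiescent libraries (log2 fold change 5.08, SE 0.52, or 5.81 without log replicate 2). CUT904, of 480 bases, had 0.700, 0.416 and 1.82 CPM and then 24.0, 45.4 and 29.3 CPM (5.04, SE 0.47, or 5.88 without log replicate 3). Neither had a log library near any quiescent one.

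CUT717 and CUT015 already had a clear level in log cells. CUT717, of 592 bases, had 332, 323 and 476 reads in log and 3829, 2992 and 5411 in quiescent libraries, and at a mean of 153 TPM it was the fifth CUT by level in quiescent cells. Its CPM went from 28.3 ± 5.84 to 408 ± 161 (log2 fold change 3.85, SE 0.33; edgeR, adjusted p = 3.13e-06). CUT015, of 480 bases, was the steadier of the pair, with 35.1, 29.5 and 23.5 CPM in log and 278, 311 and 290 CPM in quiescent libraries (3.32, SE 0.22; adjusted p = 5.09e-07).

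CUT227 and CUT877, both of 320 bases, closed the 10 with smaller changes. CUT227 had 1.47, 5.00 and 2.55 CPM in log and 20.8, 13.6 and 24.3 CPM in quiescent libraries (log2 fold change 2.71, SE 0.42). CUT877 had 7.35, 7.58 and 6.48 CPM and then 36.3, 18.2 and 36.3 CPM (2.08, SE 0.29). The adjusted p of the 10 rising CUTs was at most 0.000248. In all, 17 rising CUTs passed the test with no overlap and with a mean of 10 TPM or more in one group. The other 7 had log2 fold changes of 0.88 to 2.02.

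**Figure D3:**
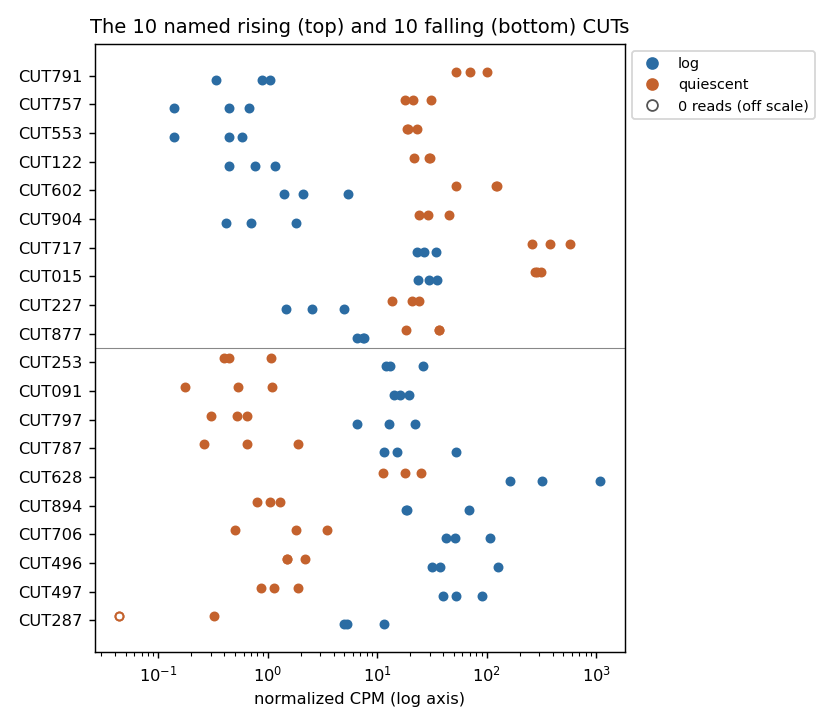
Normalized CPM on a log scale of the 10 rising and 10 falling CUTs of largest change, 1 point per library. Log and quiescent libraries do not overlap for any of the 20, and open circles at the left edge, drawn off the scale, mark the 2 quiescent libraries in which CUT287 had 0 reads.

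The CUTs that fell most did so as steeply as others rose. CUT287, of 176 bases, had 71, 138 and 72 reads in log libraries and 0, 0 and 3 in the quiescent ones. Summed over each group and scaled to the adjusted library size, the log level was 72.1 times the quiescent one. The 95% counting interval was 24.4 to 352. The fitted log2 fold change of -6.05 (SE 0.85) rests on these 3 reads, and it was -5.42 without quiescent replicate 2 and -9.44 without quiescent replicate 3.

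CUT497 and CUT496 carry neighbouring names and fell together. CUT497, of 160 bases, had 51.9, 39.5 and 91.0 CPM in log and 1.90, 1.14 and 0.859 CPM in quiescent libraries (log2 fold change -5.54, SE 0.41; edgeR, adjusted p = 1.26e-06). CUT496, of 240 bases, had 31.5, 126 and 37.4 CPM and then 1.50, 2.18 and 1.50 CPM (-5.21, SE 0.58). Log replicate 2 was the lowest of the log libraries for CUT497 and the highest for CUT496, whose change was -4.31 without it. The table gives no positions, so how near they lie was not analysed here.

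CUT706, of 144 bases, had 732, 506 and 1464 reads in log and 5, 40 and 17 in quiescent libraries (log2 fold change -5.07, SE 0.56, or -5.84 without quiescent replicate 2). CUT894, of 176 bases, had 263, 827 and 257 and then 8, 12 and 12 reads (-5.07, SE 0.61, or -4.15 without log replicate 2). The quiescent libraries of CUT706 and the log libraries of CUT894 were each spread widely, and no log library came near a quiescent one.

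CUT628 was the most abundant CUT to fall. It had 2332, 13156 and 4360 reads in log libraries, the widest spread among log libraries of CUTs with at least 10 TPM in each, and 181, 128 and 236 in the quiescent ones. In CPM it went from 525 ± 500 to 18.2 ± 7.08 (log2 fold change -4.85, SE 0.69; edgeR, adjusted p = 0.000122). Without log replicate 2 the change was -3.73.

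Log replicate 2 stood out again in CUT787, of 152 bases, with 11.4, 51.9 and 15.0 CPM in log and 1.90, 0.262 and 0.644 CPM in quiescent libraries. Its log2 fold change was -4.81 (SE 0.75), and it was -3.83 without log replicate 2 and -5.84 without quiescent replicate 1. CUT484 had the same pattern at 33.5, 172 and 69.6 CPM and then 14.6, 4.98 and 3.54 CPM (-3.57, SE 0.66; edgeR, adjusted p = 0.000759), with -2.75 without log replicate 2 and -4.39 without quiescent replicate 1.

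In the other 3 CUTs log replicate 3 was the highest. CUT797, of 200 bases, had 12.9, 6.50 and 22.1 CPM in log and 0.299, 0.524 and 0.644 CPM in quiescent libraries (log2 fold change -4.80, SE 0.56). CUT091, of 488 bases, was the longest of the falling 10, with 16.0, 14.2 and 19.4 CPM and then 1.10, 0.175 and 0.537 CPM (-4.78, SE 0.47, or -5.53 without quiescent replicate 1). CUT253, of 136 bases, had 11.9, 13.1 and 26.2 CPM and then 0.399, 0.437 and 1.07 CPM (-4.75, SE 0.49).

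The adjusted p of the 10 falling CUTs was at most 0.000245. In all, 27 falling CUTs met the conditions for naming, and the other 17 had log2 fold changes of -4.62 to -0.86.

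CUT090 and CUT680 had little change in the edgeR fit, a reading that depends on the scaling. CUT090, of 160 bases, had 8.61, 25.3 and 8.89 CPM in log and 16.8, 5.33 and 8.69 CPM in quiescent libraries (log2 fold change -0.47, SE 0.50, adjusted p = 0.418 in edgeR). Without log replicate 2 the change of CUT090 was 0.22. Its mean TPM went from 41.2 to 15.7, and limma on log2(TPM + 1) called it fallen (-1.38, adjusted p = 0.0143). CUT680, of 104 bases, had 2.52, 4.58 and 6.26 CPM and then 3.59, 7.95 and 4.08 CPM (0.23, SE 0.44, adjusted p = 0.660). The groups overlapped in both, and CUT680 was at -0.07 without log replicate 1, at -0.20 without quiescent replicate 2 and at -0.73 in limma on TPM.

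The order of CUTs differed more between states than within them. Across the 925 CUTs, log2(TPM + 1) gave a Pearson's r of 0.881 to 0.925 within the log group, 0.879 to 0.922 within the quiescent group and 0.595 to 0.663 for pairs of 1 log and 1 quiescent library. Spearman's rho was 0.632 to 0.703, 0.652 to 0.695 and 0.342 to 0.464. These are descriptions across transcripts that share libraries and depth, and 180 of the CUTs had under 10 reads in every library.

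Log replicate 2 was the highest of the log libraries for 172 of the 314 tested CUTs, or 54.8%. The same was so for 53.9% of the tested SUTs and 31.9% of the tested genes. The quiescent libraries divided more evenly, with 101, 102 and 111 CUTs highest in replicates 1, 2 and 3. Without log replicate 2, 95 CUTs rose (32.0%) and 49 fell (16.5%), of 297 tested. Of all rows tested there, 31.2% rose and 32.9% fell. Among the 10 falling CUTs named, log replicate 2 was the highest log library in 5 and log replicate 3 in 5.

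The share of all reads on CUTs overlapped between the states, and the ratio of CUT to SUT reads did not. CUTs took 0.602%, 0.770% and 0.575% of counts in log libraries and 0.848%, 0.957% and 0.555% in the quiescent ones. The means were 0.649% ± 0.106 and 0.787% ± 0.208 (SD, n = 3 each), and the groups overlapped (exact two-sided permutation p = 0.4, where the smallest p that 3 against 3 libraries allow is 0.1). Without CUT567 and CUT677 the shares were 0.314% ± 0.135 and 0.309% ± 0.0535 (exact permutation p = 1). The share depended on what it was taken of. As a share of TPM it was 1.54% ± 0.182 in log and 1.04% ± 0.413 in quiescent libraries, with overlap (exact permutation p = 0.2). Of counts outside the ribosomal DNA unit it was 0.746% ± 0.135 and 1.13% ± 0.303, and of counts of genes, CUTs and SUTs 0.952% ± 0.171 and 2.23% ± 0.544. In both of these the quiescent libraries were all higher (exact permutation p = 0.1 for each).

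The log2 ratio of summed CUT to summed SUT reads was 0.89, 0.99 and 0.92 in log libraries and -0.24, 0.39 and -0.63 in the quiescent ones. The groups did not overlap and the means differed by -1.09 (exact permutation p = 0.1; 0.15 after Benjamini-Hochberg adjustment over the 6 measures made of each library). SUT reads went from 40401, 40695 and 43139 to 89071, 92774 and 104972, while CUT reads overlapped between the groups. Without CUT567 and CUT677 the difference was -1.30, and without the 10 CUTs and 10 SUTs of highest mean TPM it was -0.66.

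In the test of single rows most calls of SUTs were upward. Of 501 tested SUTs, 252 rose (50.3%) and 35 fell (6.99%). With no minimum level, 315 of the 847 SUTs rose and 55 fell. The median log2 fold change of tested SUTs was 1.19. SUTs were longer, with a median of 744 bases against 376 for CUTs, so that the same TPM stands for more reads.

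The number of detected CUTs was lower in quiescent libraries by TPM and not by reads. The number at 1 TPM or more was 300, 416 and 337 in log libraries and 290, 279 and 202 in the quiescent ones (exact permutation p = 0.1; 0.15 adjusted). The number with at least 10 reads was 418, 479 and 430 and then 411, 481 and 442, and those groups overlapped. The difference in means at 1 TPM was -94.0, or -61.5 without log replicate 2. The median gene fell further in TPM than the median CUT. The log2 ratio of the median CUT to the median gene was -3.43, -2.99 and -3.26 in log libraries and -2.94, -2.64 and -2.58 in the quiescent ones (exact permutation p = 0.1; 0.15 adjusted). The groups did not overlap.

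**Figure D4:**
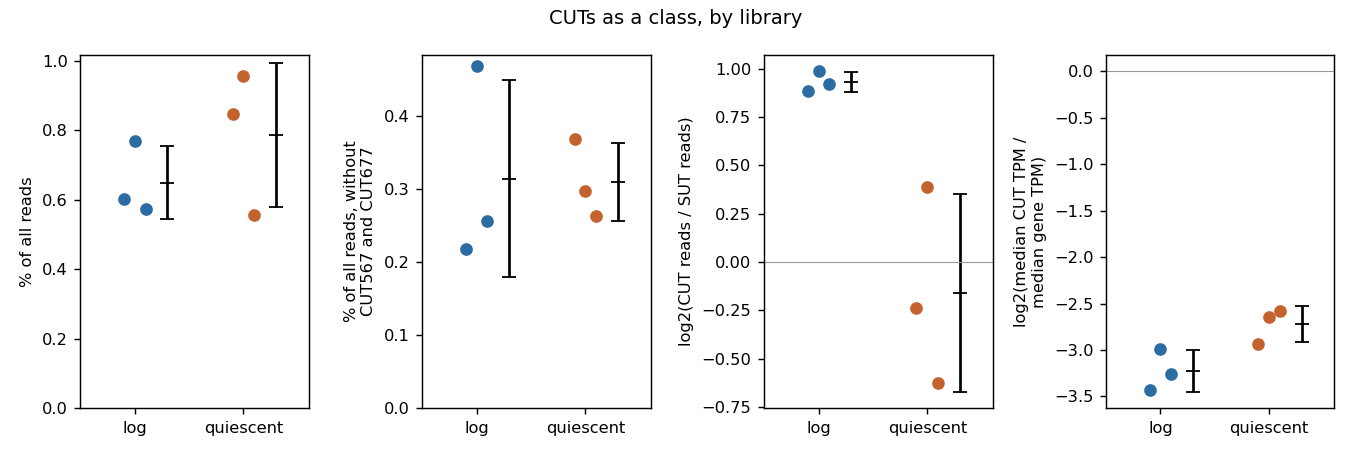
Measures of CUTs as a class, 1 point per library with the mean and SD beside the points (n = 3 each): CUT reads as a percent of all reads, the same without CUT567 and CUT677, the log2 ratio of CUT to SUT reads, and the log2 ratio of the median CUT to the median gene in TPM. Log and quiescent libraries overlap in these shares and do not overlap in the ratios.

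Among short CUTs falls outnumbered rises, and among longer CUTs rises outnumbered falls, in the edgeR fit and in every alternative setting but limma on TPM, where falls led in both. CUT lengths ran from 104 to 3432 bases, and 895 of the 925 were multiples of 8. In the shortest quartile, of 104 to 248 bases, 144 of 240 CUTs (60.0%) had a mean of at least 1 TPM, and in the next quartiles this share was 29.8%, 23.8% and 20.8%. Of the 144 tested among the shortest 240, 26 CUTs rose and 37 fell. Of the other 685, 170 were tested, and 64 rose and 23 fell. Over all tested rows of any class, 32.8% rose and 35.2% fell.

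The same counts were made without the minimum level and without a test. In the fit with no minimum, 26 rose and 46 fell in the shortest quartile, and 118 rose and 41 fell among the longer CUTs. Over all rows in that fit 25.9% rose and 29.9% fell. By overlap alone, 39 of the 240 short CUTs (16.3%) had all quiescent libraries higher and 50 (20.8%) had all lower. Among the 685 longer CUTs these were 177 (25.8%) and 61 (8.91%). Over all rows with a read the shares were 32.3% and 30.8%. Limma on TPM gave 15 risen and 67 fallen short CUTs and 23 risen and 51 fallen longer ones, where 14.5% of all tested rows rose and 53.9% fell. With TMM from genes alone the short CUTs had 28 rises and 31 falls, and without log replicate 2 they had 29 and 31. The shares over all tested rows were 37.2% risen and 31.5% fallen with that TMM, and 31.2% and 32.9% without log replicate 2.

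The level of short CUTs relative to longer ones was measured in each library, a comparison chosen after these counts were seen. The log2 ratio of the median TPM of the shortest quartile to that of the other CUTs was 1.12, 1.20 and 1.36 in log libraries and 0.80, 1.08 and 0.96 in the quiescent ones. Short CUTs stood higher in all 6 libraries, and the groups did not overlap (exact permutation p = 0.1; 0.15 adjusted). The 10 falling CUTs named had a range of 136 to 488 bases and the 10 rising ones 144 to 616.

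**Figure D5:**
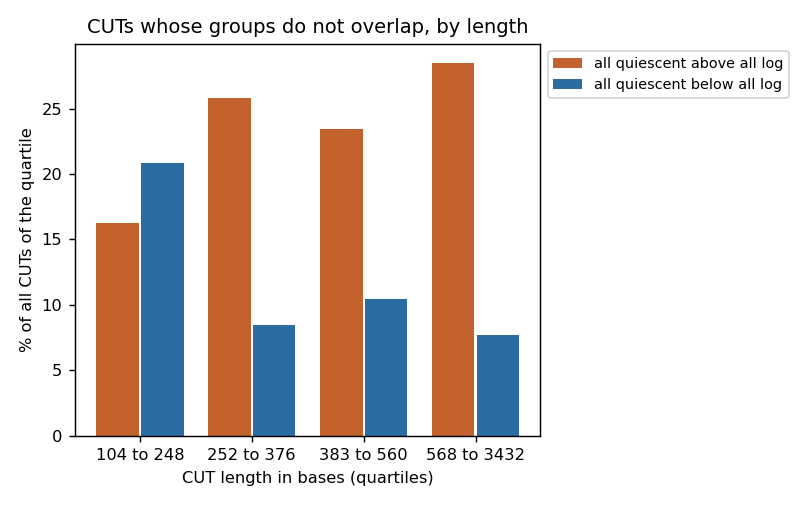
Percent of CUTs in each quartile of length whose quiescent libraries all lie above, or all below, the log libraries in normalized CPM, with no minimum level. In the shortest quartile 16.3% are higher and 20.8% lower; in the next 3 the higher share is 25.8%, 23.4% and 28.5% and the lower share 8.44%, 10.5% and 7.69%.

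CUTs were also divided by level, as normalized CPM without overlap. In the highest quartile of mean TPM, 65 of 231 CUTs (28.1%) had all quiescent libraries higher and 63 (27.3%) had all lower. In the quartile below it these numbers were 69 and 19 of 231, then 56 and 18 of 231, and 26 and 11 of the 232 of lowest level. Over all rows with a read, of any class and level, 32.3% had all quiescent libraries higher and 30.8% had all lower. Limma on TPM gave another balance, with 31 rises and 100 falls in the highest quartile and 7 and 18 in the one below it. Over all tested rows limma on TPM called 14.5% risen and 53.9% fallen. The lowest quartile ended at 0.414 TPM and the highest began at 1.43 TPM, and no CUT of the 2 lower quartiles entered the test with a minimum of 1 TPM.

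Of the 21 genes of the exosome, TRAMP and the Nrd1 complex, which end, tail or degrade CUTs, 14 fell, 2 rose and 5 did not pass. Of all 45 listed genes, which add cytoplasmic and nuclear 5′ decay and chromatin factors, 4 rose, 29 fell and 12 did not pass, with a median log2 fold change of -0.84. Over all 5608 tested genes 1781 rose (31.8%) and 2299 fell (41.0%), with a median of -0.21. RNA levels do not give the amount of protein, which was not measured.

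Of the 13 exosome genes, 10 fell and 0 rose, where 41.0% of all tested genes fell and 31.8% rose. The call of RRP46, a core ring gene, was lost without log replicate 3 (-0.72). Among the 10 were the catalytic subunit gene DIS3 (113 ± 7.16 to 25.9 ± 4.13 CPM, log2 fold change -2.13, SE 0.19) and the core ring gene RRP42 (30.1 ± 2.92 to 5.73 ± 1.26 CPM, -2.39, SE 0.24). RRP6, the gene of the nuclear exonuclease that limits CUTs, went from 72.5 ± 5.89 to 41.1 ± 5.84 CPM (SD, n = 3 each; -0.82, SE 0.18; edgeR, adjusted p = 0.00251). Its partner gene LRP1 was at 11.4 ± 3.00 and 11.6 ± 1.08 CPM (0.03, SE 0.26, adjusted p = 0.933), with -0.19 without log replicate 1 and a called fall of -0.83 in limma on TPM. MPP6 and RRP40 did not pass in edgeR either (-0.21 and -0.16) and were called fallen in limma on TPM (-0.78 and -1.06).

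TRAMP genes went both ways. The helicase gene MTR4 fell from 196 ± 36.5 to 33.7 ± 13.0 CPM (log2 fold change -2.54, SE 0.29), and the RNA-binding subunit gene AIR1 (-1.67, SE 0.37) and the poly(A) polymerase gene TRF5 (-0.75, SE 0.25) fell too. The call of TRF5 was lost without log replicate 1 (-0.73) or log replicate 3 (-0.71). PAP2, the gene of the main TRAMP poly(A) polymerase Trf4, rose from 26.8 ± 2.24 to 45.3 ± 6.63 CPM (0.76, SE 0.18), but limma on TPM gave -0.22. AIR2 did not pass, at 9.90 ± 1.81 and 11.5 ± 3.08 CPM (0.22, and -0.60 in limma on TPM).

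In the Nrd1 complex, NRD1, the gene of an RNA-binding subunit that recognises CUTs, rose from 62.0 ± 12.3 to 176 ± 68.8 CPM (log2 fold change 1.50, SE 0.30; edgeR, adjusted p = 0.00116), with 0.40 and no call in limma on TPM. NAB3, the gene of its RNA-binding partner, was at 81.6 ± 8.21 and 68.9 ± 26.6 CPM (-0.24, SE 0.28, adjusted p = 0.461). The change of NAB3 was 0.09 without quiescent replicate 3 and -1.19, a called fall, in limma on TPM. The helicase gene SEN1 passed at -0.44 (SE 0.17, adjusted p = 0.0366), a call that was lost when any 1 library was left out (-0.48 to -0.36).

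Of 10 genes of cytoplasmic decay, 7 fell and 0 rose, set against 41.0% and 31.8% of all tested genes. Calls were lost for the decapping gene DCP1 without log replicate 2 (-1.19), and for NAM7, the gene of the nonsense-mediated decay helicase Upf1, without log replicate 1 (-0.60), log replicate 3 (-0.51) or quiescent replicate 3 (-0.47). The 7 included the exonuclease gene XRN1 (635 ± 27.5 to 304 ± 41.2 CPM, log2 fold change -1.06, SE 0.20) and the Ski complex helicase gene SKI2 (86.5 ± 2.23 to 16.6 ± 4.87 CPM, -2.39, SE 0.23). RAT1, the gene of the nuclear 5′ exonuclease, and RAI1, that of its cofactor, both fell (-1.03, SE 0.18, and -2.02, SE 0.25).

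Of 12 genes of chromatin factors that limit cryptic or divergent transcription, 6 fell and 2 rose, where 41.0% of all tested genes fell and 31.8% rose. The H3 methyltransferase gene SET2 (-1.50, SE 0.20), the histone chaperone genes SPT6 (-1.14, SE 0.18) and SPT16 (-1.79, SE 0.24) and the remodeller gene ISW1 (-1.60, SE 0.18) were among the 6. EAF3, the gene of a subunit of the deacetylase complex that reads Set2 marks, rose from 27.0 ± 1.98 to 103 ± 5.54 CPM (1.93, SE 0.17). IOC4, the gene of an Isw1 partner, rose from 13.6 ± 0.689 to 28.7 ± 4.39 CPM (1.07, SE 0.20), with 0.05 and no call in limma on TPM.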

How the data were processed

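RNA was depleted of ribosomal RNA, made into total RNA libraries and read on an Ion Proton instrument, per the labels' protocols. The authors deposited raw read counts per feature with a feature length, per the file headers, with R64 as the genome build per the submitters' processing notes. Which aligner, counter and strand setting were used is not given in the sources used here. Reads of a CUT and of a gene or small RNA that overlaps it may therefore not be separated, nor may reads of its antisense strand. A further 6 columns of per-sample values were not used. Spike-in RNA named in the protocols was not used here.

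TPM was computed here from counts and lengths. Rows with a mean of at least 1 TPM were tested by the edgeR 4.0.16 quasi-likelihood test (R 4.3.3), two-sided, with TMM scaling over the 7305 tested rows, no covariate and Benjamini-Hochberg adjustment over them, at a threshold of 0.05. Fold changes are given on the log2 scale as quiescent minus log. The common biological coefficient of variation was 0.264. Measures made once per library were compared by exact permutation tests, and intervals cover counting error only. The fit was tested on simulated data, in which few rows were given a change. Every row was drawn at the common coefficient of 0.264, below the median of 0.404 for tested CUTs. Recovery of CUTs in the real data may therefore be lower than in the simulation. It recovered 1 of 11 CUT rows given a fold of 2, 13 of 20 given 4 and 16 of 19 given 8. Over all rows it recovered 22 of 64, 60 of 69 and 64 of 67 at these folds.

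The members, the lists and the tests were chosen with earlier results of these data known. Named CUTs are the 10 rising and 10 falling of largest change among called CUTs that reach a mean of 10 TPM in either group without overlap, the 5 of highest mean TPM in each group, the 3 most abundant that did not pass and lay within 0.5 of 0 on the log2 scale, and the CUT of widest range in each group. A gene is a protein-coding row. Alternatives were other minimum levels, scalings, DESeq2 1.42.0, limma 3.58.1 on TPM with pseudocounts of 1 and 0.5, a minimum fold change of 2, a replicate block, and the omission of each library in turn. The table gives no positions of CUTs, so their sequences are not shown.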

Additional observations from a re-analysis of the deposited data

How the results depend on the processing

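Of the 150 CUT calls, DESeq2 kept 150 in the same direction, median-of-ratios scaling 148, TMM from protein-coding genes 142, no minimum level 140, total-count scaling 134, a minimum fold change of 2 94, and leaving out 1 library 116 to 128. A minimum of 10 TPM left 44 CUTs, of which 17 rose (38.6%) and 18 fell (40.9%). Of all rows tested there, 36.6% rose and 41.9% fell. Counts of risen CUTs were 144 with no minimum level, 51 with a minimum fold change of 2, and 38 and 37 in limma on TPM with pseudocounts of 1 and 0.5. In that order these were 15.6%, 16.2%, 12.1% and 11.8% of the tested CUTs. Of all tested rows 25.9%, 19.6%, 14.5% and 14.4% rose. Limma on TPM gave 118 and 119 fallen CUTs (37.6% and 37.9%), where 53.9% and 53.7% of all tested rows fell. With 1 library left out, 66 to 95 CUTs rose (20.4% to 32.0%) and 49 to 62 fell (15.8% to 19.4%). Of all rows tested there, 29.6% to 32.6% rose and 32.3% to 35.2% fell.

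The difference in the CUT share was -0.508 percentage points of TPM, 0.383 of counts outside the ribosomal DNA unit and 1.28 of counts of genes, CUTs and SUTs. The difference in the CUT to SUT ratio was -0.66 without the 10 highest CUTs and SUTs. The number of CUTs detected differed by -33.0 at 5 TPM and by 2.33 at 10 reads. Of the listed decay and termination genes, 9 were tested at 10 TPM, of which 2 rose and 5 fell. Of all genes tested there, 33.0% rose and 49.3% fell. With a minimum fold change of 2, 2 of all 45 rose and 13 fell, where 18.8% of tested genes rose and 26.5% fell. In limma on TPM 1 rose and 37 fell with either pseudocount. There 14.2% of tested genes rose, and 60.1% fell with a pseudocount of 1 and 59.8% with 0.5. In limma on TPM with pseudocounts of 1 and 0.5 the sign turned for CUT677 (-0.16 in both), LRP1 (-0.83 and -0.89), PAP2 (-0.22 and -0.24) and NMD2 (-0.80 and -0.89). It also turned, with no call in either test, for CUT567, CUT544, CUT226, CUT680, AIR2, UPF3, SKI7 and RCO1. The cause of these differences was not tested.

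Replicate numbers did not pair the libraries: deviations of same-numbered libraries correlated at 0.12, -0.14 and -0.15. With the number as a replicate block, 74 CUTs rose (23.6%) and 49 fell (15.6%), where 30.6% and 34.0% of all tested rows did. Among named CUTs and listed genes, the calls of CUT677 (0.85, adjusted p = 0.0689) and SEN1 (-0.44, adjusted p = 0.0877) in edgeR were lost. Depth limits the weak CUTs, whose median count was 8 to 10 reads a library.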
